A study of Mus musculus with 18 samples.

Results

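The neutrophil granule genes described here are 10 listed genes whose products fill the granules or the cytosol of neutrophils: S100a8, S100a9, Ngp, Camp, Ltf, Lcn2, Mmp8, Mpo, Elane and Prtn3. They were taken by symbol from the 49184 genes to which the transcripts of the libraries were matched, and every one of the 10 passed edgeR's filter on low counts. The lowest count of a member in any library was 2226, for Prtn3 in naïve replicate 7. By TPM (transcripts scaled by length and library total) the lowest member was Mmp8, at 15.3 or more in every library. The members were listed by name, with earlier results of these data known.

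Cartilage was taken from the knees of 12-week-old male C57Bl/6J mice after rupture of the anterior cruciate ligament (ACL) by a single mechanical load of 12 N on the right knee. The 18 libraries fall into 6 naïve libraries from unloaded mice, 3 injured and 3 contralateral (uninjured left knee) libraries at day 1 post injury, and 3 injured and 3 contralateral libraries at day 7. Replicates are named by their library number, which runs from 1 to 18 across the groups: naïve 7 to 12, day 1 contralateral 1, 4 and 5, day 1 injured 2, 3 and 6, day 7 contralateral 13 to 15 and day 7 injured 16 to 18. The labels give the naïve libraries as day 7, so a day 1 group and the naïve group also differ in day of collection. All groups share strain, sex and the age at which mice were assigned, and no allele distinguishes them. The loaded mice had isoflurane anaesthesia, and buprenorphine, an opioid, was given when the experiment began. Whether naïve mice had either drug is not given in the sources used here. Each library is a pool: the study's scheme gives 2 mice per library at day 1, 4 at day 7, and 2 knees per naïve library from 6 naïve mice in all, whereas the series text gives 4 mice for every sample. Because that scheme kept the knees of each side in separate pools, the 6 naïve libraries share mice among themselves, and injured and contralateral libraries of a day come from the same mice. The study modelled this with a correlation between libraries. The labels do not say which libraries share mice, so all were treated as independent in every n, SD and p-value given here, which can overstate their precision. The study set aside 1 library with a low mapping rate without naming it, and whether it is among these is not given in the sources used here. Totals of estimated counts per library ran from 16074762 to 41794005.

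Neutrophils are made in the bone marrow, and their granules form in order as the cell matures. Primary granules, with myeloperoxidase and serine proteases, form in promyelocytes. Specific granules, with lactoferrin, neutrophilic granule protein, cathelicidin and lipocalin 2, form at the next stages, and the matching mRNAs are largely switched off in the mature cell, which keeps the proteins. The name specific granule genes is kept below for Ngp, Camp, Ltf and Lcn2, and the collagenase gene Mmp8 is counted apart. S100A8 and S100A9 pair as calprotectin, an abundant calcium-binding protein of the neutrophil cytosol that is also made by monocytes. In an injured joint, neutrophils arrive early from the blood, and their proteases and metal-binding proteins reach the synovial fluid.

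Short stretches of the sequence at the starts of these genes are shown because the members varied together from library to library. PU.1 (encoded by Spi1) and the C/EBP factors are the main transcription factors of granule gene expression, and their usual recognition letters were searched on both strands in the RefSeq promoters of all 10 members, from 250 bases before to 50 bases after the gene's RefSeq start (build GRCm38.p6). These starts can lie inside the gene loci used for the distances below, as for Prtn3, whose locus begins at base 79874476. Of 7 sets of letters searched, 2 are shown, chosen after their matches had been seen. Of the others, the shorter GAGGAA, which lies within the PU.1-type letters below, was in 7 of 10 members, Ltf and Lcn2 included, and in 28.28% of all promoters. AGAGGAAA was in 1 member (3.3% of all promoters), the C/EBP palindrome TTGCGCAA in 0 (0.18%), TATAAA in 3 (13.62%) and the RUNX-type ACCACA in 2 (16.76%). The PU.1-type letters GAGGAAGT were found in 5 of 10 members, and in 3.2% of all 32851 promoters. These 5 included all 3 primary granule genes. The stretches of 30 bases read in the direction of the gene, with the match in capitals, and the capitals read ACTTCCTC where the match lies on the other strand.
Prtn3, chr10:79879561-79879590 (+): caaactggaagGAGGAAGTgggacccacag
Elane, chr10:79886216-79886245 (+): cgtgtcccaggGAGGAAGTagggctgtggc
Mpo, chr11:87793549-87793578 (+): gtggagagagaGAGGAAGTtgcctttgtcc
S100a8, chr3:90668888-90668917 (+): ccaacactcccACTTCCTCagactcagaaa
Mmp8, chr9:7558197-7558226 (+): taactagcacaACTTCCTCattacacacag

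The C/EBP-type letters TTNNGCAA, where N is any base, were found in 5 of 10 members, among them 3 of the 4 specific granule genes, against 10.8% of all promoters. The same letters read as TTGCNNAA from the other strand, and the search letters do not overlap those of the PU.1 type. Only Mmp8 held both kinds. Camp held neither, which says only that these letters are not in its window. These matches are a description of sequence and show no binding.
Ngp, chr9:110419659-110419688 (+): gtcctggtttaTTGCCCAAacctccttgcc
Ngp, chr9:110419786-110419815 (+): accggcagttcTTGGGCAAggcagtctcaa
Ltf, chr9:111019206-111019235 (+): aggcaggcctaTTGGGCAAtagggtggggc
Lcn2, chr2:32387937-32387966 (-): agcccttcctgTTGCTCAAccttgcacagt
S100a9, chr3:90695939-90695968 (-): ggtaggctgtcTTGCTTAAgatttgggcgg
Mmp8, chr9:7558399-7558428 (+): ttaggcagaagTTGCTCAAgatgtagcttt

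Some members also lie close together in GRCm38. Prtn3 and Elane are neighbours on chromosome 10 with 3073 bases between them, and S100a8 and S100a9 lie 22597 bases apart on chromosome 3, on opposite strands. Camp, Ngp and Ltf follow each other on chromosome 9 with 570.13 kb and 596.259 kb between them, while Mmp8 lies elsewhere on that chromosome, Mpo is on chromosome 11 and Lcn2 on chromosome 2.

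Transcripts of these genes were abundant in the cartilage RNA, before and after injury. Per length, that is on the TPM scale, S100a8 had the highest mean level over the 18 libraries at 4107 TPM, followed by S100a9 at 3456, Ngp at 1294, Ltf at 744, Camp at 579, Lcn2 at 519, Mpo at 228, Elane at 169, Prtn3 at 128 and Mmp8 at 73.2 TPM. Among all genes of a library, S100a8 ranked between 11 and 19 by TPM in 17 libraries and at 38 in day 7 contralateral replicate 13. The label of the libraries names chondrocytes as the cell type, and the chondrocyte collagen Col2a1 was present at 254 to 676 TPM. S100a8 was 5.94 to 18.6 times as high as Col2a1 in the same 17 libraries and 0.996 times in replicate 13. Together the 10 genes took between 0.716% and 1.84% of the counts of a library. In bulk libraries such as these, fewer cells of a type and less RNA per cell cannot be told apart.

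Day 7 contralateral replicate 13 stood apart from the other libraries before any comparison was made. Its 10 most abundant genes took 42.5% of its counts, against 16.6 to 29.8% in the 17 others. Within the neutrophil granule genes its make-up differed: S100a8 and S100a9 made up 41.0% of the members' summed TPM, against 60.0 to 71.1% elsewhere, and the 4 specific granule genes 51.0%, against 24.1 to 32.3%. The ratios of some pairs of members also lay outside the range of the other libraries. The TPM ratio of S100a8 to S100a9 was 0.553 in replicate 13 and 1.01 to 1.37 in the others, and that of Lcn2 to Camp was 0.124 against 0.741 to 1.21. Markers of other cells also differed, to an extent that depended on the scale. As a share of counts, the B cell list held 0.0375% in replicate 13, against at least 0.0464% elsewhere. The endothelial list held 0.0424%, against at least 0.0539%. The erythroid marker list, with the haemoglobin gene Hbb-bs as its most abundant member, took 4.56% of the counts of replicate 13 and at most 4.31% elsewhere, and by TPM it took 2.73%, within the range of 1.72 to 5.77% of the others. Megakaryocyte and platelet markers, at 0.0792% of counts, lay within the range of the other libraries, of which the highest held 0.0854%. On the normalised CPM scale defined below, which raises this library, they summed to 1138, against at most 816 elsewhere. On that scale the erythroid list summed to 65554, against at most 42224, and the chondrocyte list to 15063, against at most 8977. The chondrocyte list took 1.05% of counts against at most 0.866%. The osteoblast list, led by Col1a1, took 3.70%, against 1.77 and 2.29% in its group. The part of these differences in the results was not tested, and the comparisons that use the day 7 contralateral group are given with and without this library.

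**Figure D1:**
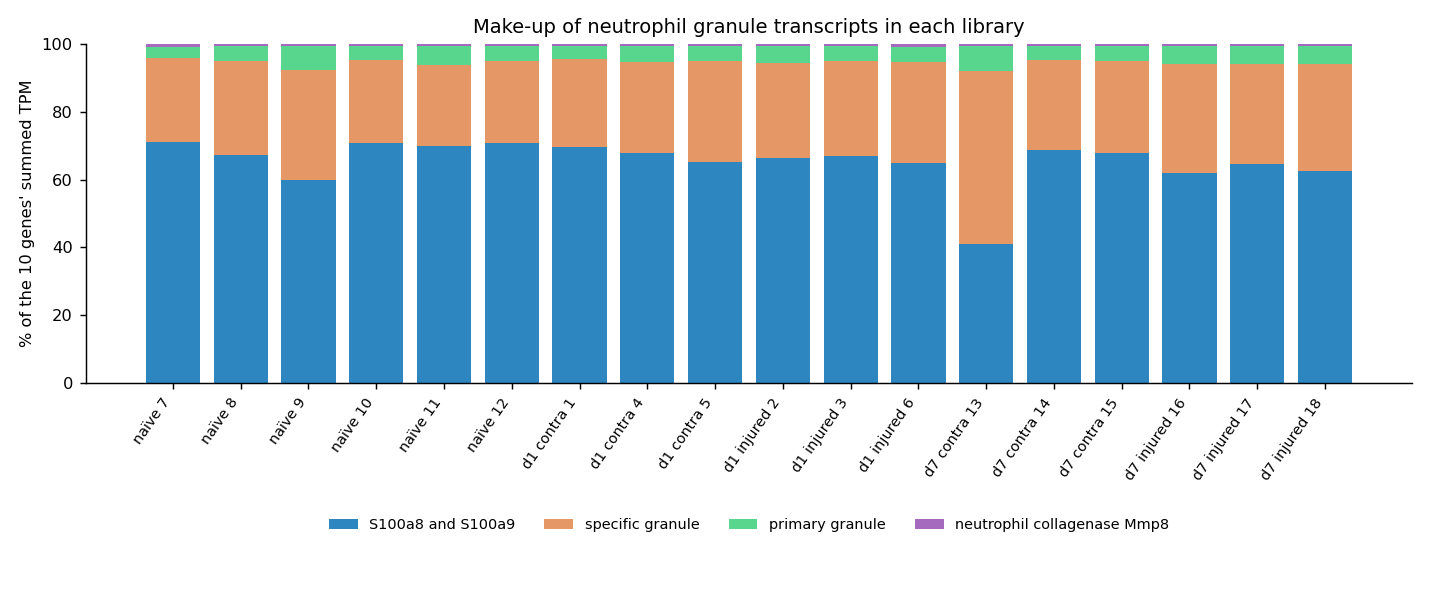
Make-up of the neutrophil granule transcripts in each of the 18 libraries. Bars show the percentage of the 10 genes' summed TPM taken by S100a8 and S100a9, the 4 specific granule genes, the 3 primary granule genes and Mmp8; day 7 contralateral replicate 13 is the only bar in which S100a8 and S100a9 fall under 60.0%.

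Levels across groups are given from here on as CPM (counts scaled to the library total), normalised over all 18 libraries by the trimmed mean of M-values (TMM). This scaling raises replicate 13: its members summed to 11716 CPM, against 0.815% of its counts. The members' summed level by CPM was highest on average in the day 7 contralateral group at 14687 ± 2723 CPM (SD, n = 3; 16172 ± 1261 without replicate 13, n = 2), followed by naïve at 12894 ± 2019 (n = 6), day 1 contralateral at 12466 ± 1734 (n = 3), day 1 injured at 10469 ± 3048 (n = 3) and day 7 injured at 9564 ± 1663 CPM (n = 3). Neighbours in this order overlapped in every case with all 18 libraries. The day 7 injured libraries held 11470, 8809 and 8412 CPM, so that only replicate 16 reached into the naïve range of 10667 to 15741 CPM. At day 1 the injured libraries split, with replicate 2 at 13988 CPM within the naïve range and replicates 3 and 6 at 8667 and 8752 CPM below it. Relative to naïve, the summed level was 74.2% at day 7 in injured knees by CPM and 54.5% by the deposited TPM. By TPM the day 1 groups were at 116% of naïve for contralateral and 111% for injured, where CPM gave 96.7% and 81.2%, so the direction at day 1 flips with the scale. Day 7 contralateral libraries were at 114% of naïve by CPM and 107% by TPM, where they ranked below both day 1 groups. That TPM rank rested on replicate 13, whose members summed to 3149 TPM, against 19597 and 14218 TPM in replicates 14 and 15. The TPM scale also moved the median of 14264 genes against naïve by 0.31 and 0.53 on the log2 scale for the same day 1 groups and by -0.30 for day 7 injured.

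**Figure D2:**
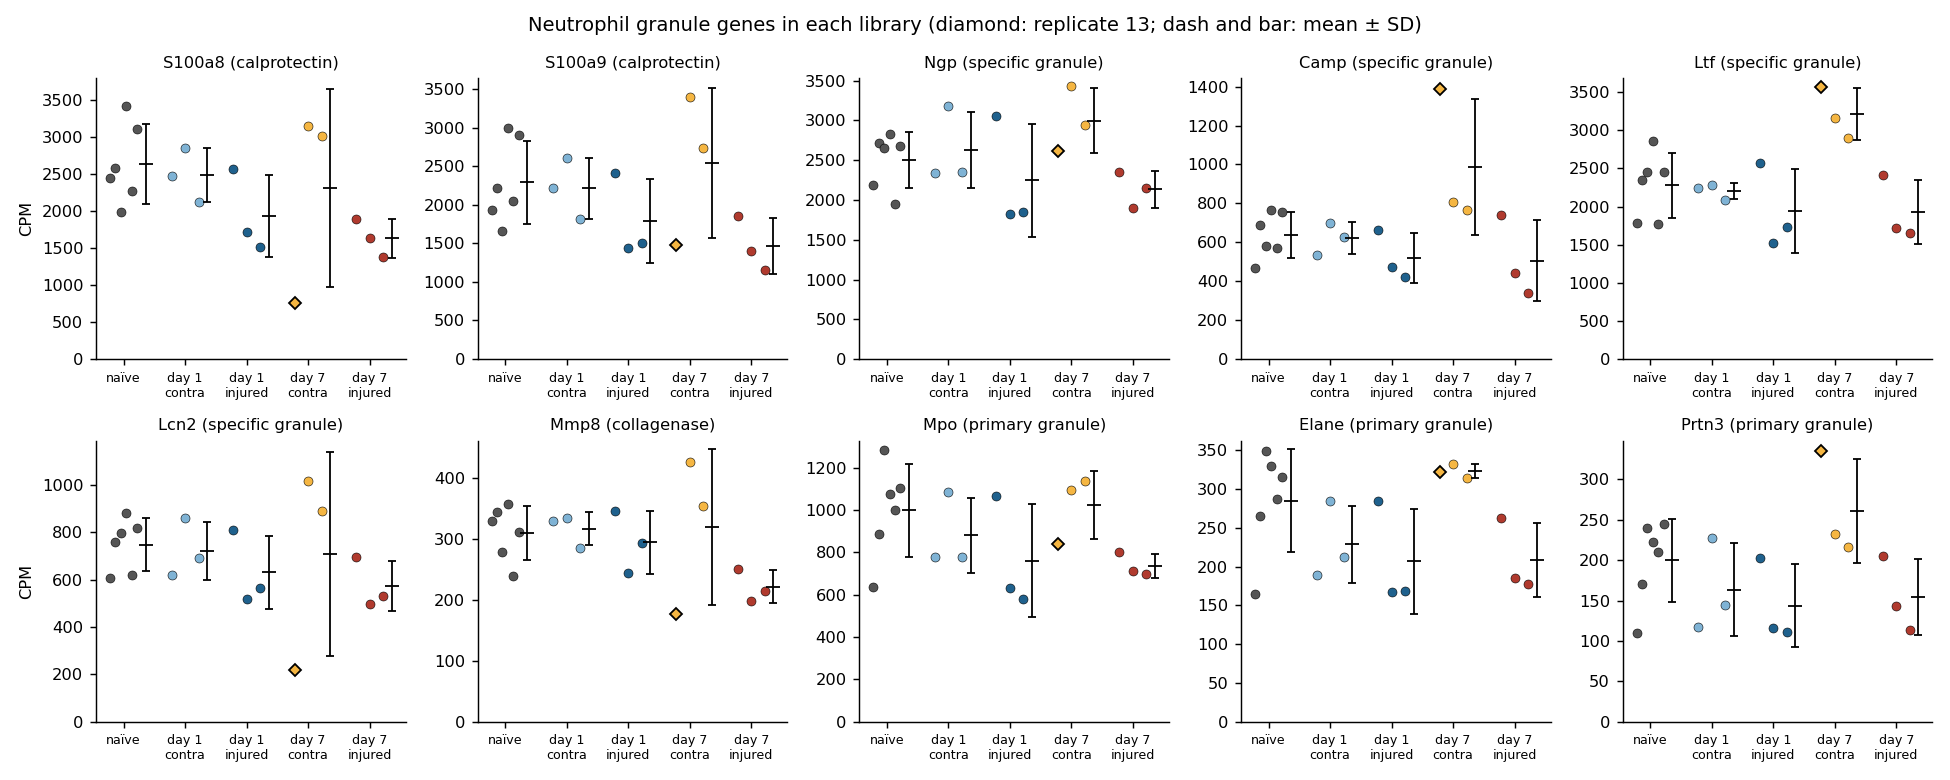
Levels of the 10 neutrophil granule genes in CPM (vertical axes, linear, from 0) in each library, by group; dashes with bars show the mean and SD, and the diamond marks day 7 contralateral replicate 13. The 3 day 7 injured libraries of S100a8 lie below all 6 naïve libraries, and replicate 13 is the lowest library for S100a8, Lcn2 and Mmp8 and, on this TMM scale, the highest for Camp, Ltf and Prtn3. As a share of counts with no TMM factor it stays the highest for Camp alone of these 3.

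The comparison of day 7 injured with naïve libraries asks how the transcripts stand once joint degeneration has begun. All 10 members had log2 fold changes below 0, with a median of -0.39 against -0.04 over all 21129 genes tested. S100a8 and S100a9, the subunits of calprotectin, were the 2 members called lower. A call needed a false discovery rate (FDR) no higher than 0.05 together with a change of 1.5-fold or more. Of all genes tested, 6.11% were called lower and 10.4% higher. No member was called higher. Mmp8, the neutrophil collagenase, passed the FDR limit, as 11% of all genes did in the lower direction, but not the fold limit. Mpo, Elane, Prtn3, Ngp, Camp, Ltf and Lcn2 passed neither.

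S100a8 was at 1994 to 3427 CPM in naïve libraries, with a median of 2515, and at 1897, 1632 and 1375 CPM in day 7 injured libraries. Every injured library thus lay below every naïve one, which was the case for 1 of the 10 members and for 10.8% of all genes tested. On the deposited TPM scale, which itself moves all genes as given above, it was the case for 7 of the 10 members and for 20.8% of 14264 genes. With no TMM factor it was the case for S100a8, S100a9, Ngp, Lcn2, Mmp8 and Mpo. For Mpo the gap was narrow, at most 672 CPM in injured against at least 682 CPM in naïve libraries. Camp, Ltf, Elane and Prtn3 overlapped, and the share of all genes on that scale is not given here. The log2 fold change of S100a8 was -0.67 with a standard error (SE) of 0.199, a 1.60-fold lower level (FDR = 0.0192, edgeR's quasi-likelihood test with Benjamini-Hochberg adjustment). S100a9 was at 1662 to 2993 CPM in naïve libraries, with a median of 2129, and at 1856, 1395 and 1150 CPM in injured libraries. The groups of S100a9 overlapped through injured replicate 16, which lay above the lowest naïve library. Its log2 fold change was -0.63 with an SE of 0.227 (FDR = 0.0493), just inside the limit.

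Both calls depended on the libraries and the fit. With all 18 libraries in the fit neither gene was called, the lowest FDR of a member being 0.0843 (edgeR), and with an offset for average transcript length S100a9 was not called. Without naïve replicate 10, the naïve library with the highest S100a8 and S100a9, neither gene was called, and the same held without injured replicate 17 or 18. Without injured replicate 16 the called members were 3, since Camp was added. All 10 members were below 0 in each of these fits.

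Mmp8 was at 239 to 358 CPM in naïve libraries and at 251, 199 and 215 CPM in day 7 injured ones, of which only replicate 16 overlapped the naïve range. Its log2 fold change was -0.47 with an SE of 0.133 (edgeR FDR = 0.0160), or 1.38-fold lower. Lcn2, which binds the siderophores of bacteria, changed by -0.36 with an SE of 0.170 and did not pass (edgeR FDR = 0.119). Among the remaining specific granule genes, the log2 fold changes were -0.32 for Camp, the cathelicidin precursor, -0.22 for Ltf, the iron-binding lactoferrin, and -0.21 for Ngp, and none passed. The primary granule genes had log2 fold changes of -0.43 for Elane (neutrophil elastase), -0.42 for Mpo (myeloperoxidase) and -0.36 for Prtn3 (proteinase 3), with SEs of 0.234, 0.216 and 0.280. The naïve libraries themselves spread widely for these 3 genes: Elane ran from 164 CPM in replicate 7 to 349 CPM in replicate 9.

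Against the contralateral knees at day 7, all 10 members again lay below 0 in the injured knees, with a median log2 fold change of -0.58 against -0.05 over the 21262 genes tested. Camp and Ltf, 2 specific granule genes, were called lower, against 3.23% of all genes tested, and none was called higher, against 9.33%. The comparison shares its injured libraries with the one against naïve, so it is not a separate observation of those libraries. With only the 6 libraries of these groups in the fit neither was called, the lowest FDR of a member being 0.0555 (edgeR). In 6 of the 10 members (Camp, Ltf, Ngp, Mpo, Elane and Prtn3) every injured library lay below every contralateral one, as in 14.3% of all genes tested. With no TMM factor the groups overlapped for Ngp, at 1822 CPM or more in contralateral and up to 1972 CPM in injured libraries. They also overlapped for Mpo, at 584 CPM or more and up to 672 CPM, whereas Camp, Ltf, Elane and Prtn3 stayed apart.

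Camp was at 1388, 809 and 765 CPM in contralateral replicates 13, 14 and 15 and at 739, 440 and 340 CPM in injured replicates 16, 17 and 18. Replicate 13 was the highest of all 18 libraries, and the 2 groups did not overlap. The log2 fold change was -0.96 with an SE of 0.280, a 1.95-fold lower level (FDR = 0.0222, edgeR). Ltf was at 3573, 3165 and 2899 CPM in contralateral libraries and at 2410, 1714 and 1658 CPM in injured ones, with a log2 fold change of -0.74 and an SE of 0.214 (edgeR FDR = 0.0223). S100a9 differed by more than Ltf, at -0.79, with an SE of 0.297 that left it outside the limit (edgeR FDR = 0.0738). Prtn3 was at -0.76, Elane at -0.63, Mmp8 at -0.53, S100a8 at -0.50, Ngp at -0.49, Mpo at -0.47 and Lcn2 at -0.30, and none of these passed.

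Which members were called in this comparison depended on replicate 13. In this library S100a8 was at 765 CPM, whereas contralateral replicates 14 and 15 held 3151 and 3020 CPM. Lcn2 was at 217 CPM against 1016 and 891, and Mmp8 at 177 CPM against 426 and 354. For all 3 genes it was the lowest library of the series. Without replicate 13 the called members were S100a8, S100a9, Lcn2 and Mmp8, against 1.99% of the 21808 genes then tested called lower and 9.31% called higher, and Camp and Ltf were no longer called. S100a8 then had a log2 fold change of -0.89 with an SE of 0.236 (edgeR FDR = 0.0146), S100a9 of -1.04 with an SE of 0.275, Lcn2 of -0.71 with an SE of 0.207 and Mmp8 of -0.79 with an SE of 0.166 (edgeR FDR = 0.00298). Camp moved to -0.61 with an edgeR FDR of 0.142, and Ltf to -0.63 with an edgeR FDR of 0.0719. Without injured replicate 17 or 18 no member was called, and without injured replicate 16 the called members were 4, namely S100a9, Camp, Ltf and Elane.

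**Figure D3:**
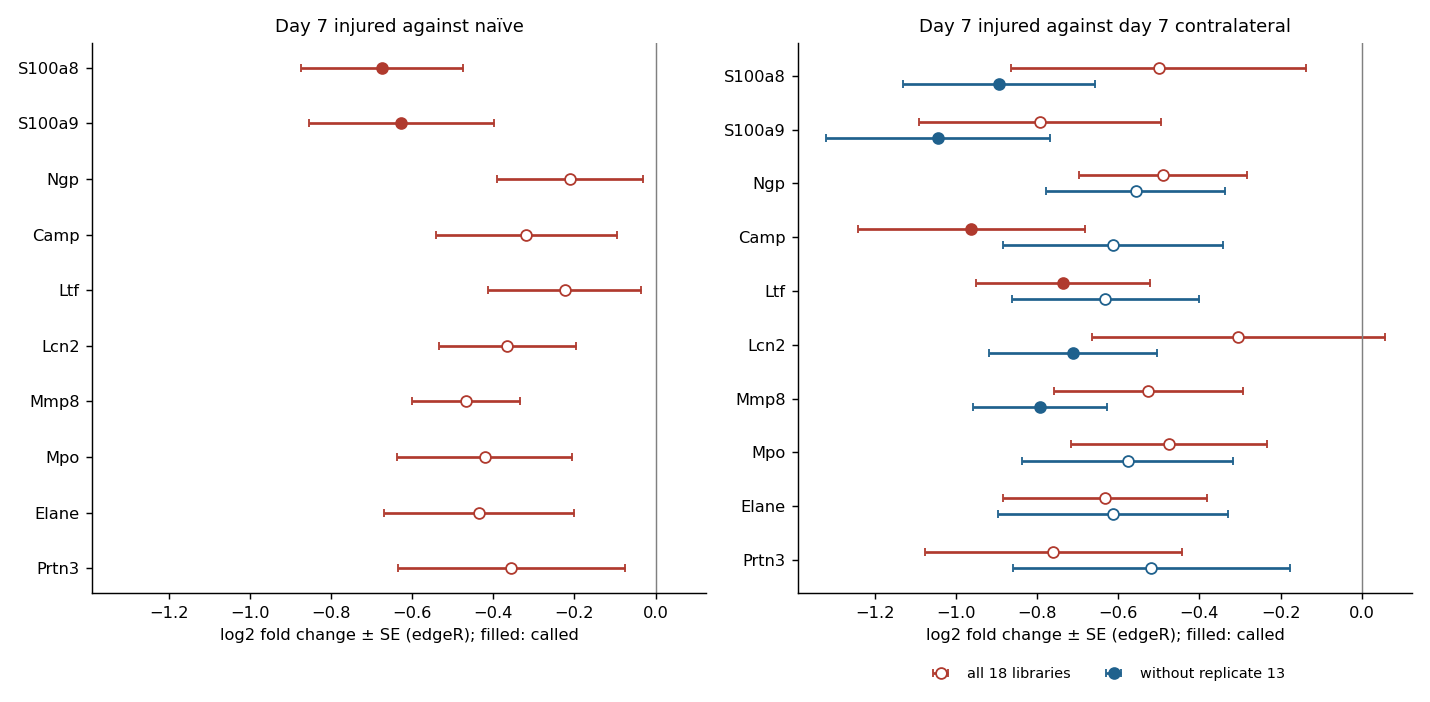
Log2 fold changes of the 10 genes with their SE (edgeR), for day 7 injured against naïve libraries on the left and against day 7 contralateral libraries on the right; filled points were called. Every point lies below 0, and the called genes on the right are Camp and Ltf with all 18 libraries (red) and S100a8, S100a9, Lcn2 and Mmp8 without replicate 13 (blue).

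At day 1, when an acute influx of neutrophils into an injured joint is usual, no member was called in either direction. Against naïve, injury and day of collection cannot be told apart here. Against naïve libraries all 10 members had log2 fold changes below 0, between -0.48 (Prtn3, SE 0.281) and -0.08 (Mmp8, SE 0.131), with a median of -0.33. Without injured replicate 2 this median was -0.56, without replicate 6 -0.20, and without replicate 3 the members below 0 were 9. A single member, S100a8, had an unadjusted p under 0.05 in edgeR, as did 4.54% of all genes, DESeq2 called 0, and the background of edgeR calls over all 21129 genes was 0 percent in both directions, while DESeq2 called 15 genes lower. S100a8 was at 2571 CPM in day 1 injured replicate 2, within the naïve range, and at 1723 and 1520 CPM in replicates 3 and 6, below it. Against the day 1 contralateral knees all 10 members were again below 0, between -0.37 (S100a8, SE 0.223) and -0.11 (Mmp8, SE 0.151), with a median of -0.21. These values rested on single libraries: without contralateral replicate 4 the median was -0.06 with 8 of 10 below 0, without injured replicate 3 it was -0.08 with 9 below 0, without injured replicate 6 it was -0.11, and without injured replicate 2 it was -0.49. Here 0 members passed in edgeR, 0 had an unadjusted p under 0.05 (6.55% of all genes did), DESeq2 called 0, and the background of calls was 0 percent with both tools. Day 1 contralateral libraries held S100a8 at 2480, 2861 and 2131 CPM, which overlapped the injured range.

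Between the 2 injured groups no difference of the members passed the test either. From day 1 to day 7 the median log2 fold change of the members was -0.04, with 7 of 10 below 0. The sign turned with single libraries: without day 1 injured replicate 2 the median was 0.20 with 2 of 10 below 0, without replicate 3 or 6 it was -0.17 or -0.19 with all 10 below 0, without day 7 injured replicate 16 it was -0.23 with all 10 below 0, and without replicate 17 or 18 it was 0.01 or -0.02 with 5 below 0. The largest was that of Mmp8, at -0.39 with an SE of 0.151 (edgeR FDR = 0.0722), while 6.38% of all genes were called lower and 9.04% higher between these groups. No member was called by edgeR or DESeq2, and 1 had an unadjusted p under 0.05, as did 37.8% of all genes. The difference of the injury effects themselves, injured against contralateral at day 7 minus the same at day 1, was largest for Camp at -0.71 with an SE of 0.392 (edgeR FDR = 0.394). No member passed in edgeR or DESeq2, none had an unadjusted p under 0.05 against 16.3% of all genes, and 0.245% of all genes were called lower and 3.53% higher. Without replicate 13 Camp was at -0.36, and the largest differences were those of S100a9 at -0.73 with an SE of 0.373 and Mmp8 at -0.68 with an SE of 0.224. Mmp8 was then the 1 member with an unadjusted p under 0.05 (edgeR FDR = 0.0988), no member was called, and 0.321% of all genes were called lower and 4.09% higher. The lower levels called at day 7 and not at day 1 are therefore not shown to differ between the days.

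No member passed edgeR's test between the control groups. In day 1 contralateral against naïve libraries 8 of 10 members were below 0, with a median of -0.05, which became 0.01 with 3 below 0 without naïve replicate 10 and -0.18 with 10 below 0 without contralateral replicate 4, and the largest change was that of Elane at -0.31 with an SE of 0.232 (edgeR FDR = 1.00). Day 7 contralateral against naïve libraries had 8 of 10 members above 0, with a median of 0.17 (0.08 with 6 above 0 without replicate 14), and the largest was Camp at 0.63 with an SE of 0.235 (edgeR FDR = 0.260). The unadjusted p was under 0.05 for 0 members in the first (2.62% of all genes) and for 2 in the second (15.1%), edgeR and DESeq2 called 0 members in both, and the background of edgeR calls was 0 percent. Over all genes DESeq2 called 1 lower and 1 higher in the first and 13 lower and 18 higher in the second. Without replicate 13 all 10 members were above 0 in day 7 contralateral against naïve libraries, with a median of 0.31. Camp was then at 0.30 and the largest was S100a9 at 0.42 with an SE of 0.244 (edgeR FDR = 0.911), 1 member had an unadjusted p under 0.05, and edgeR called no member and 0 percent of all genes. Ltf, at 2899 CPM or more in every day 7 contralateral library, lay above all naïve libraries, of which the highest held 2858 CPM, as did 1.92% of all genes. With no TMM factor the groups overlapped, at 2486 CPM or more against at most 2896 CPM.

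The members varied together from library to library. Over all 18 libraries the mean Pearson correlation of log2 CPM over the 45 pairs was 0.56, and over the 17 libraries without replicate 13 it was 0.79. These libraries share groups and preparation, so the values are a description. The closest pair was Elane and Prtn3, the neighbours on chromosome 10, at 0.95 with all libraries and 0.97 without replicate 13. S100a8 and S100a9 were at 0.85 and 0.97. Camp and Lcn2 had the lowest value with all libraries, at -0.09, whereas without replicate 13 the lowest was that of Prtn3 and Mmp8 at 0.38.

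Outside the list, the genes with the most similar pattern to the members' mean over 18 libraries were Pglyrp1 (r = 0.97), a peptidoglycan-binding granule protein, Fcnb (0.96), a ficolin of myeloid cells, Rac2 (0.96), a small GTPase of blood cells, Cybb (0.93), the catalytic subunit of the phagocyte oxidase, and 4930438A08Rik (0.92). Without replicate 13, 3 of these 5 remained, and Cebpe and Hk3 took the other places. For Mmp8 alone the closest were Fpr1 (0.96), the formyl peptide receptor, and Slco4c1 (0.95), and both were among the 5 closest without replicate 13. For Lcn2 alone the 5 closest with all libraries were Uchl5, Cd52, Fcgr3, Il16 and Ifitm6, and none of them remained without replicate 13, when the closest were Rac2 (0.98) and Pglyrp1 (0.96).

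Other genes of the neutrophil programme were described from lists that the members do not belong to. Of 20 other specific and gelatinase granule genes, led in level by the lysozyme Lyz2, none was called between day 7 injured and naïve libraries by edgeR or DESeq2, 9 had an unadjusted p under 0.05 in edgeR, as did 41.1% of all genes in either direction, and 17 were below 0, with a median of -0.31. Against the day 7 contralateral libraries 5 were called lower, where 3.23% of all genes were, and 19 were below 0. Of these 5, Retnlg fell by 0.90, the leukotriene receptor gene Ltb4r1 by 0.81, Cd177 by 0.74, and the membrane protease gene Mmp25 by 0.66 on the log2 scale. Without replicate 13 the number called was 8, where 1.99% of all genes were called lower, with Retnlg no longer among them. A further list held 20 genes of mature neutrophils, led in level by Cxcr4. Of these, Clec4e (-0.60) and Fpr1 (-0.59) were called lower against naïve, where 6.11% of all genes were. Both were close to the fold limit and lost the call in 11 and 10 of 22 alternatives run. Against contralateral, where 3.23% of all genes were called lower, Ly6g (-0.82), Padi4 (-0.69) and Trem3 (-0.65) were called. Without replicate 13 the number was 9, where 1.99% of all genes were called lower, with Ly6g (-0.71) no longer among them. Fpr1 was at 21.0, 16.9 and 17.6 CPM in the day 7 injured libraries and at 23.5 to 30.6 CPM in the naïve ones.

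Of 9 other primary granule genes tested, the tetraspanin gene Cd63, which is also widely expressed outside neutrophils, rose by 1.07 on the log2 scale against naïve and none was called lower, with 5 above 0 and 4 below 0. Against naïve, 10.4% of all genes were called higher and 6.11% lower. Prss57, a serine protease gene, was the only one called against contralateral with all libraries, at -0.87, where 3.23% of all genes were called lower. At -0.50 without replicate 13 it was not called, and 1 gene of the list was then called higher, where 9.31% of all genes were. Of 10 transcription factors of granulopoiesis, led in level by Spi1, Runx1 rose against naïve (0.93) and against contralateral (1.20). The shares of all genes called higher were 10.4% and 9.33% in these comparisons. Cebpa (-0.85), Gfi1 (-0.79) and Cebpe (-0.64) were called lower against contralateral, where 3.23% of all genes were. Cebpa was not called without replicate 13.

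Attractants and growth factors of neutrophils were mostly scarce. Of 13 listed, 9 were tested, and Ppbp, a platelet chemokine gene and the most abundant of the list, was the one called against naïve, at -0.62. In that comparison 6.11% of all genes were called lower. Il17a was at 0 counts in every library, which allows up to 3 counts each, and Csf3, which encodes the granulocyte growth factor G-CSF, had at most 13 counts. Cxcl1 was uneven and did not follow the groups: it had 319 counts in day 1 injured replicate 3, 248 in day 1 contralateral replicate 5 and 102 in naïve replicate 11, and at most 53 in the 15 others. Of 16 genes for binding partners or inhibitors of the products, the metalloprotease inhibitor gene Timp2 (2.09) and the scavenger receptor gene Lrp1 (1.00) rose against naïve. Against naïve, 10.4% of all genes were called higher and 6.11% lower. Serpina1a (-0.85) and Serpina1b (-1.57), near-identical paralogues for antitrypsin whose reads may be shared, were called lower, and the call was lost in 16 and 2 of 22 alternatives run. Of 8 other S100 genes tested, 6 were above 0 and 2 below 0 against naïve. S100a16 (1.05) and S100a10 (0.90) were called higher, where 10.4% of all genes were, and none was called lower.

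Erythroid and megakaryocyte markers were below 0 as well in the day 7 injured libraries, where 6.11% of all genes were called lower against naïve. Of 13 erythroid genes all were below 0 against naïve and 6 were called lower, among them Alas2 (-0.73), Epb42 (-0.67) and Slc4a1 (-0.66). The summed erythroid level was 35345 ± 4005 CPM in naïve (SD, n = 6) and 23086 ± 5515 CPM in day 7 injured libraries (n = 3). Against contralateral 8 erythroid genes were called lower, where 3.23% of all genes were. Without replicate 13 edgeR called 0, where 1.99% of all genes were called lower. In that fit 8 had an unadjusted p under 0.05, as did 29.2% of all genes, and DESeq2 called 2. Klf1, among the 8 called with all libraries, had 1135 counts in replicate 13 and 2 and 8 in replicates 14 and 15. All 8 megakaryocyte and platelet genes were below 0 against naïve and 3 were called, Gp1bb (-0.83), Gp9 (-0.76) and Gp6 (-0.70). In the eosinophil, basophil and mast cell list, Ear1 (-0.65) and Ear6 (-0.60) were called lower of 13 with 10 below 0, with the call of Ear6 lost in 6 of 22 alternatives run, and of 12 B cell genes Ms4a1 (-0.80) was, with 8 below 0. Of 12 monocyte and macrophage genes, 9 were above 0 and none was called lower. Against contralateral, the eosinophil, basophil and mast cell list had 3 genes called lower and 1 higher. Without replicate 13 it had 7 lower and 1 higher, with a median log2 fold change of -0.69. The megakaryocyte and platelet list had 4 called lower, and 3 without replicate 13. The B cell list had 0 lower and 1 higher, and 1 lower and 1 higher without replicate 13. The share of all genes called higher against contralateral was 9.33%, and 9.31% without replicate 13.

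In the same libraries, 10.4% of all genes were called higher and 6.11% lower against naïve. Of 10 synovial fibroblast genes 5 were called higher, among them Col3a1 (3.65), Col1a2 (1.91) and Thy1 (1.91). Their summed level was 10291 ± 1483 CPM in naïve (n = 6) and 51874 ± 3490 CPM in day 7 injured libraries (n = 3). The osteoblast and osteocyte list summed to 13190 ± 3927 and 51769 ± 3876 CPM, of which Col1a1, also a gene of fibroblasts, is the most abundant. In that list 5 of 10 genes were above 0 and 5 below 0, with a median log2 fold change of -0.15, Col1a1 (2.05) was among 2 called higher, and Sost (-0.95) and Mepe (-0.61) were called lower. Of 8 endothelial genes 5 were called higher, with Emcn at 1.04, and of 7 osteoclast genes Ctsk (1.25). Of 9 skeletal muscle genes, Myh2 (-1.87) was called lower, with overlapping groups and the call lost in 12 of 22 alternatives run. In the chondrocyte list of 13 genes, 4 were called higher, with Acan at 1.57, and 2 lower, with Cytl1 at -2.31. These shifts in other cell type markers were found in the same comparison as the lower neutrophil granule genes. Their part in those lower levels was not tested.

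**Figure D4:**
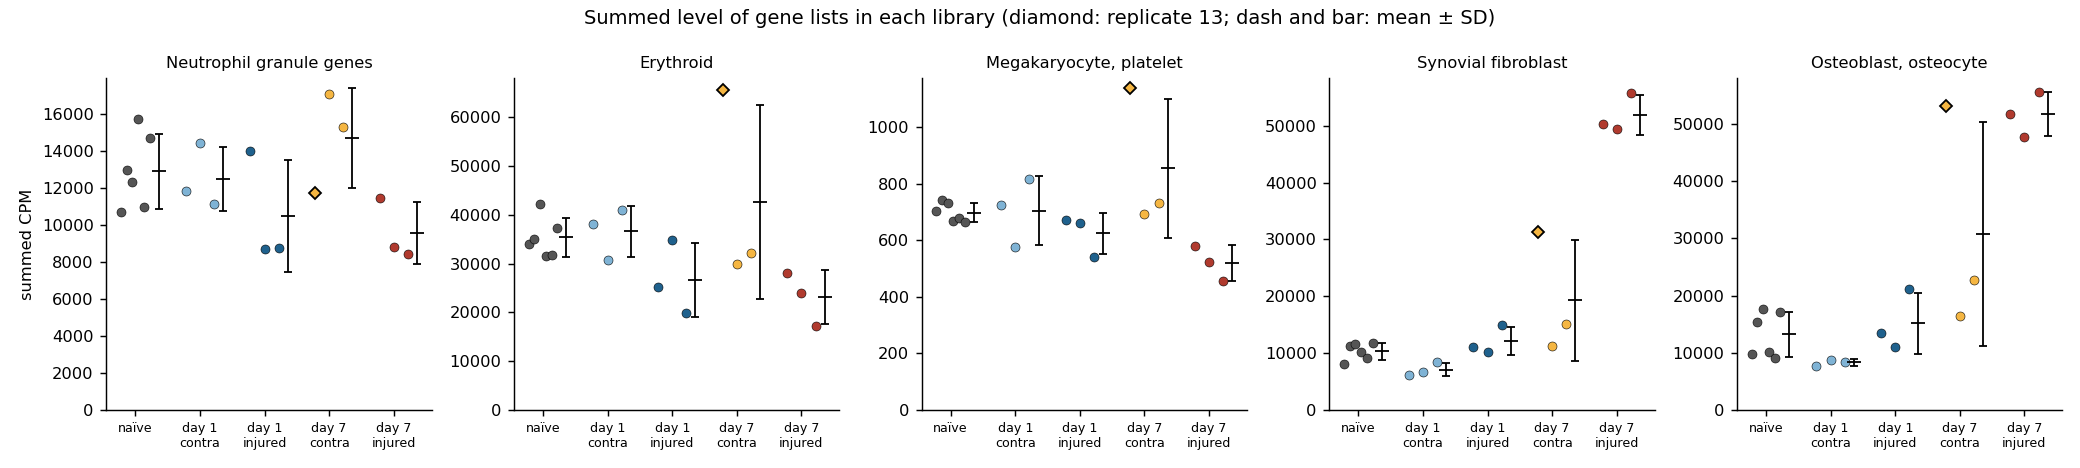
Summed CPM (vertical axes, linear, from 0) of the 10 neutrophil granule genes and of marker lists of erythroid, megakaryocyte and platelet, synovial fibroblast and osteoblast and osteocyte genes in each library, with the mean and SD per group; the diamond marks replicate 13. The 3 day 7 injured libraries lie below all naïve libraries for the erythroid list (at most 28096 CPM against at least 31552) and above them for the synovial fibroblast list.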

How the data were processed

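Transcript abundances of 18 libraries were used as deposited. The authors trimmed the reads with Trimmomatic 0.39 and pseudo-aligned them with kallisto 0.46.1 to the mouse transcriptome (GRCm38, release 103). The submitters' processing notes also name GRCh38 and DESeq2, without versions. The deposited estimated counts are not normalised, the TPM values deposited by the authors are scaled by transcript length and library total, and the deposited effective lengths served 1 alternative. Of 137436 transcripts, 135107 (98.3%) were matched without version to GENCODE M21 genes, and the 2329 others held 0.667 to 3.90% of a library's counts. Counts were summed per gene and rounded.

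Groups were taken from the labels. In R 4.3.3, edgeR 4.0.16 with its quasi-likelihood test, TMM normalisation, its low-count filter, 1 mean per group and no covariates was fitted across all genes. A gene was called at a Benjamini-Hochberg FDR of at most 0.05 and at least 1.5-fold, the study's limits. Comparisons without the day 7 contralateral group used 15 libraries, the others 18. The SE is the log2 fold change divided by the root of its F statistic. The study's limma-voom step with a correlation over mouse pools could not be repeated, because the labels do not tie libraries to mice. DESeq2 1.42.0, limma-voom 3.58.1, other scalings, filters and fits and leaving out each library were tried. Likeness is the Pearson correlation of log2 CPM (prior count 1). The script was tested on simulated data. Named were all 10 members and, for 18 other lists, the most abundant gene and up to 4 called genes with the largest change, apart from some that are not reported here. Cxcl1, Csf3, Il17a, the promoter letters and the levels without a TMM factor were chosen after values or matches were seen. The members and lists were chosen with earlier results of these data known. Counting limits cover counting error only.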

Additional observations from a re-analysis of the deposited data

Results flagged for a closer look

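Among 21 sets of naïve values examined (levels, shares and ratios of the neutrophil granule genes), 1 held a library far from the rest. S100a8 and S100a9 made up 60.0% of the members' summed TPM in naïve replicate 9, against 67.3 to 71.1% in the 5 other naïve libraries, a gap of 0.652 of the group's range. Chance flags about 1 in 20 groups. In the same library Mpo (1286 CPM) and Elane (349 CPM) were the highest of the naïve group, and S100a8 (1994 CPM) the lowest.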

How the results depend on the processing

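No paired analysis was possible because the labels give the groups no shared replicate numbers and do not tie injured and contralateral libraries to the same mice. Against naïve at day 7, the number of members called lower was 2 with DESeq2 size factors, no low-count filter, DESeq2, limma-voom or the compared groups alone, 0 with all 18 libraries in the fit, 1 with an average transcript length offset, 3 without a fold limit, and 0 to 3 leaving out each library. It was 0 without naïve replicate 10 or day 7 injured replicate 17 or 18, and 1 without day 1 contralateral replicate 1 or naïve replicate 8 or 12. Against contralateral at day 7 it was 0 with only the groups compared, 3 with DESeq2, which added S100a9, and 0 to 4 leaving out each library. No member was called in any other comparison under any alternative run, and none was called higher. Leaving out single libraries, the log2 fold change of Lcn2 against contralateral at day 7 ran from -0.71 without replicate 13 to 0.043 without replicate 14, and that of Mmp8 at day 1 from -0.20 to 0.050 against naïve and from -0.23 to 0.013 against contralateral, without injured replicates 2 and 3. The cause was not tested. By TPM the summed level was 54.5% of naïve in day 7 injured, 111% in day 1 injured and 116% in day 1 contralateral libraries. Under alternatives added after seeing the data, all 40 named list genes kept their sign against naïve and 26 stayed called throughout, and against contralateral all 42 kept their sign and 15 stayed called. With 3 libraries in most groups, smaller differences may not be detectable.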
